A study of Homo sapiens with 6 samples.

Results

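The β-catenin destruction complex was followed through the 10 genes that encode its scaffolds, kinases, substrate and substrate receptor: APC, APC2, AXIN1, AXIN2, AMER1, GSK3A, GSK3B, CSNK1A1, CTNNB1 and BTRC. The genes were taken by symbol, 10 of the 24462 different symbols in the count files, and none of them was entered more than once per file. Their read counts were compared between 3 libraries of 1CT and 3 libraries of 1CT-A. A count is the number of sequencing reads assigned to a gene, and CPM is that count scaled to a library total of 1000000.

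In cells that receive no Wnt signal, APC and the axins hold β-catenin beside the kinases CSNK1A1 and GSK3, which phosphorylate its N-terminal end. The phosphorylated end is bound by BTRC, the substrate receptor of an SCF ubiquitin ligase, and β-catenin is then degraded by the proteasome. A Wnt signal holds the complex at the receptor, and β-catenin enters the nucleus and acts with TCF and LEF factors. In the colon epithelium this pathway maintains the crypt stem cells, and loss of APC is a frequent first step of colorectal tumours.

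1CT cells are human colon epithelial cells made immortal, and 1CT-A is their version in which wild-type APC was depleted (APC KD in the labels). Both were untreated and grown in the same supplemented medium with epidermal growth factor, hydrocortisone, insulin, selenite, transferrin and serum. 1CT-A was received from another laboratory as 1 derived line and was set against its parental line, so the depletion cannot be told apart from other differences between these lines, and no line with a control construct was analysed here. The labels do not say that the libraries of a line came from separate cultures, so the p-values measure the spread between libraries, which may be technical. The libraries were made with QuantSeq, which reads the 3′ end of polyadenylated transcripts. Such a count reports the amount of RNA and neither protein, phosphorylation nor which part of a transcript is intact.

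The 1CT libraries held 7788679 to 8452258 counts and the 1CT-A libraries 11158108 to 12602988, so depth and cell line cannot be told apart. A level of 3 counts, taken as the lowest that can be seen, was between 0.355 and 0.385 CPM in 1CT and between 0.238 and 0.269 CPM in 1CT-A. Counting error only is covered by this limit. Summed over 378 olfactory receptor genes, which colon cells are not known to use, the level was between 3.38 and 4.50 CPM in 1CT and between 1.40 and 1.67 CPM in 1CT-A. Of 8 epithelial marker genes, 3 to 4 were above the limit in a 1CT library and 1 to 2 in a 1CT-A library, with a summed level of 13.4 to 17.4 against 3.23 to 7.20 CPM. Of these 8, EPCAM and VIL1 had 0 counts in all 6 libraries. All 7 mesenchymal marker genes were above the limit in every library, with a summed level of 4636 to 5627 CPM in 1CT against 4208 to 4519 CPM in 1CT-A. Within this sum COL3A1 had 31.5 to 66.8 CPM in 1CT against 240 to 269 CPM in 1CT-A. COL1A1, PDGFRB, THY1 and ACTA2 were lower in 1CT-A, so the sum hides moves in both directions. The RNA carried little of the 8 epithelial markers in either line. Of 6 immune and endothelial markers 1 was above the limit in each library.

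The stretch of CTNNB1 that the complex acts on is shown because it joins the kinases to the substrate receptor. It is the coding sequence of codons 30 to 48 in exon 3, read from GRCh38 at chr3:41224600-41224656 on the plus strand, and the capitals mark the codons of serine 33, serine 37, threonine 41 and serine 45. CSNK1A1 phosphorylates serine 45, GSK3 then phosphorylates the other three in turn, and BTRC reads the phosphorylated serines 33 and 37.
CTNNB1 codons 30 to 48: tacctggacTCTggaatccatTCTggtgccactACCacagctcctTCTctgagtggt
This is reference sequence, and the counts do not show which alleles the cells carry.

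APC, CSNK1A1 and BTRC were lower in 1CT-A, to between 0.668 and 0.812 of the 1CT level, and CTNNB1 was 1.14-fold higher. AMER1 passed the test as higher, but at counts of 3 to 23, and neither of the higher calls held when single libraries were left out. APC2, AXIN1, GSK3A and GSK3B did not pass, and AXIN2 had too few counts to be tested. Of the 9 members tested, 2 were thus higher and 3 lower at an adjusted p under 0.05 (edgeR's quasi-likelihood test, Benjamini-Hochberg adjustment over 12514 genes), while across all genes tested 25% were higher and 26% lower. The median log2 change of the 9 members was 0.03 against -0.01 for all genes tested. With at least a 1.5-fold change 1 of 9 members (AMER1) was called against 28.3% of all genes, and APC, at 0.668, fell just short of it. The CPM ranges of the 2 lines were apart for 5 of 9 members against 59.7% of all genes. At these shares the members, as a list, did not stand out from the whole transcriptome, and the values of each are what follows.

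**Figure D1:**
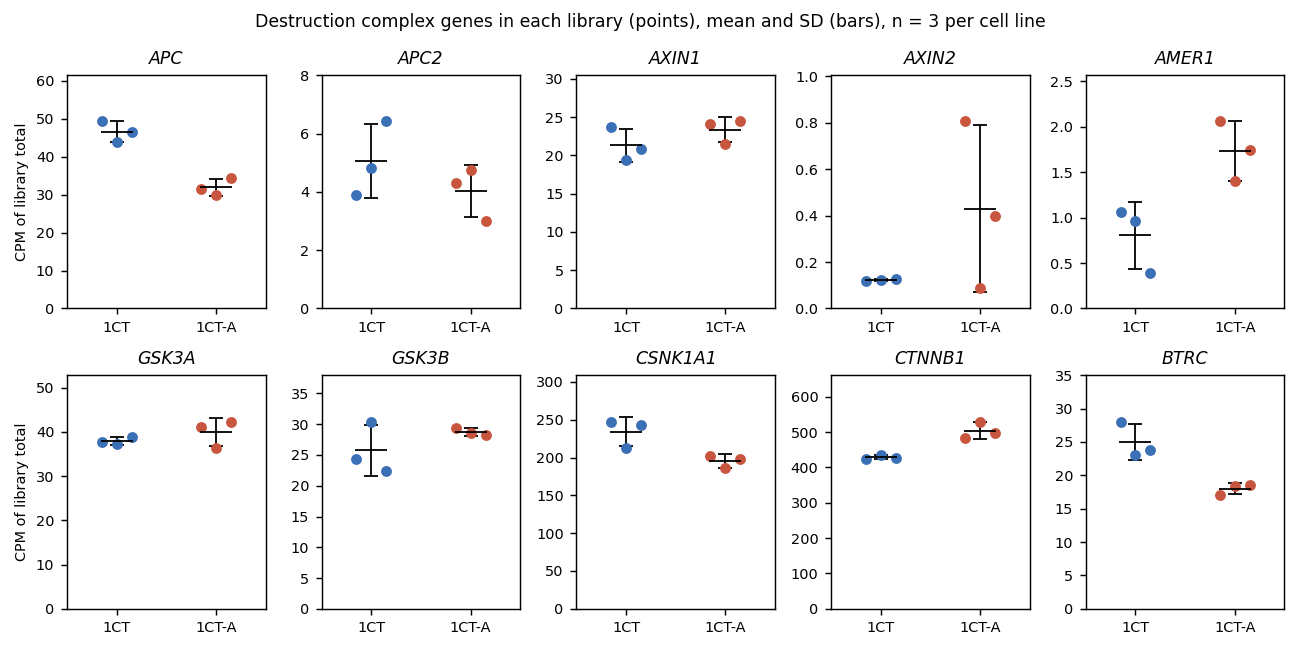
Level of each destruction complex gene in CPM of the library total (linear axis from 0, scaled per gene) in the 1CT (blue) and 1CT-A (red) libraries, where points are libraries, long ticks are means and bars are SD over 3 libraries. APC, CSNK1A1 and BTRC have all 1CT-A points below all 1CT points, CTNNB1 and AMER1 have them above, and AXIN2 lies below 1 CPM in every library.

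APC, the scaffold that carries binding sites for β-catenin and axin, was the gene targeted in 1CT-A. It had 49.3, 43.8 and 46.6 CPM in the 1CT libraries and 31.5, 30.0 and 34.4 CPM in the 1CT-A libraries. The groups did not overlap, and the highest 1CT-A library stayed below the lowest 1CT library. The direction is that of the labels. It is no check of them, since 59.7% of all genes tested did not overlap and 26% were called lower. The means were 46.6 ± 2.75 and 31.9 ± 2.21 CPM (SD, n = 3 each). The fitted log2 change was -0.58 (SE 0.09, 95% interval -0.78 to -0.38, adjusted p = 0.00018, edgeR), which left 0.668 of the 1CT level. It ran from -0.63 to -0.53 when each library was left out in turn and from -0.64 to -0.54 under the other settings. A two-sided exact permutation test of 3 against 3 libraries gave p = 0.1, the smallest it allows, for APC and for every gene whose groups did not overlap. In bulk RNA, fewer cells with APC transcript and less APC transcript per cell cannot be told apart. APC lies on chromosome 5 at 112707518 to 112846239 (GRCh38, plus strand) with 16 exons in its reference transcript.

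APC2, a paralog of APC known mainly from the nervous system, was read at a far lower level than APC. It had 3.90, 4.83 and 6.42 CPM in 1CT and 4.30, 4.74 and 3.02 CPM in 1CT-A, from 33 to 54 counts per library. The groups overlapped, and the log2 change of -0.37 (SE 0.25, 95% interval -0.91 to 0.17) did not pass the test (adjusted p = 0.239, edgeR). The interval includes the change found for APC, so a fall of that size is not excluded for APC2 at this depth. Of 5 neuronal marker genes TUBB3 was at or above the limit of 3 counts in every library, SNAP25 in 1CT alone (15, 16 and 7 counts against 0 in each 1CT-A library) and NEFL in 1CT-A alone (7, 6 and 6 counts against 0 in each 1CT library). The 5 had a summed level of 112 to 114 CPM in 1CT against 93.7 to 102 CPM in 1CT-A, nearly all of it TUBB3, and RBFOX3 and SYP were at or near 0. The olfactory receptor level given above is a sum over 378 genes, and APC2 alone had a level of the same order as that sum. The level per olfactory receptor gene was therefore far below that of APC2. The part of either list in the APC2 values was not tested. The last base of APC2 (chromosome 19, 1446302 to 1473244, plus strand) lies inside C19orf25 on the opposite strand, which had 455 to 647 counts, and without a stated strand setting reads of the 2 genes cannot be told apart.

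AXIN1, the constitutive axin and the scaffold that holds GSK3 and β-catenin together, had 23.7, 19.4 and 20.8 CPM in 1CT and 24.1, 21.5 and 24.4 CPM in 1CT-A. The groups overlapped, with a log2 change of 0.09 (SE 0.11, 95% interval -0.15 to 0.34, adjusted p = 0.517, edgeR). The interval excludes a fall of the size seen for APC. AXIN1 lies on chromosome 16 at 287440 to 352723 on the minus strand.

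AXIN2 is both a scaffold and a transcriptional target of β-catenin, and in colon cells its RNA is a common readout of the pathway. The 3 libraries of 1CT gave 1 count each and those of 1CT-A gave 9, 1 and 5, or 0.118, 0.121 and 0.128 CPM against 0.807, 0.0878 and 0.397 CPM. One 1CT-A library was as low as 1CT and the other two were above the limit of 3 counts, so the groups overlapped. Pooled, 15 counts in 1CT-A stood against 3 in 1CT, a ratio of 3.49 in CPM with a 95% counting interval of 0.987 to 18.8. AXIN2 did not reach the minimum count of the test, the exact permutation test gave p = 0.4, and no change was detectable at this depth. In the annotation 47.3% of the 50-base words at the ends of AXIN2 transcripts also occur in an unnamed overlapping gene that has no entry of its own in the files, which leaves the assignment of such reads uncertain.

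AMER1, also called WTX, binds APC at the plasma membrane and is encoded on the X chromosome (64185117 to 64205708, minus strand). It had 9, 8 and 3 counts in 1CT and 23, 16 and 22 counts in 1CT-A, or 1.06, 0.966 and 0.385 CPM against 2.06, 1.40 and 1.75 CPM. The groups did not overlap, and the third 1CT library was the lowest. The log2 change of 1.04 (SE 0.39, 95% interval 0.19 to 1.90) passed the test narrowly (adjusted p = 0.0409, edgeR). AMER1 entered the test through the 1CT-A libraries, since 1 of 3 1CT libraries was above the minimum, so a difference in this direction was favoured by the filter. The call was lost without the second 1CT library (adjusted p = 0.0612), the third 1CT library (log2 change 0.74, adjusted p = 0.151), the first 1CT-A library (0.91, adjusted p = 0.126) or the third 1CT-A library (1.05, adjusted p = 0.0901, edgeR in each). With DESeq2 the adjusted p was 0.123, and with upper-quartile scaling it was 0.0506. With the replicate number added to the fit as a block it was 0.0541 (edgeR). Its paralogs AMER2 and AMER3 had at most 4 counts in any library and were not tested.

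The glycogen synthase kinases GSK3A and GSK3B, which phosphorylate β-catenin, APC and axin, were both read at similar levels in the 2 lines. GSK3A had 37.7, 37.2 and 38.9 CPM in 1CT and 41.0, 36.3 and 42.3 CPM in 1CT-A. Its log2 change was 0.03 (SE 0.09, 95% interval -0.16 to 0.23, adjusted p = 0.776, edgeR), and its sign turned with upper-quartile scaling (-0.02). GSK3B had 24.4, 30.4 and 22.5 CPM in 1CT and 29.4, 28.5 and 28.2 CPM in 1CT-A, with a log2 change of 0.12 (SE 0.11, 95% interval -0.13 to 0.36, adjusted p = 0.411, edgeR). In both kinases the groups overlapped, and the intervals exclude a change as large as that of APC in either direction. GSK3A (chromosome 19, 42226225 to 42242625, minus strand) overlaps ZNF526 on the opposite strand, which had 124 to 166 counts, and shares 13.9% of the 50-base words of its transcript ends with an unnamed overlapping gene of the same strand that has no entry of its own in the files, whereas GSK3B (chromosome 3, 119821321 to 120094994, minus strand) shared no 50-base word of its transcript ends with another gene.

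CSNK1A1, the casein kinase 1 that primes β-catenin at serine 45, was lower in 1CT-A. It had 248, 212 and 243 CPM in 1CT and 203, 186 and 198 CPM in 1CT-A, with means of 234 ± 19.1 and 195 ± 8.77 CPM (SD, n = 3 each). The groups did not overlap, although the second 1CT library came close to the first 1CT-A library. The log2 change was -0.30 (SE 0.08, 95% interval -0.47 to -0.13, adjusted p = 0.00636, edgeR), or 0.812 of the 1CT level, and it ran from -0.37 to -0.26 with the call kept when each library was left out. CSNK1A1 (chromosome 5, 149492982 to 149551471, minus strand) shares 26.9% of the 50-base words of its transcript ends with an unnamed noncoding gene, at most 0.823% with any other gene and 0.0748% with its intronless copy CSNK1A1L, so reads of these may have been split. CSNK1A1L itself had a log2 change of -0.18 (SE 0.16, adjusted p = 0.364, edgeR).

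CTNNB1, which encodes β-catenin, was the member with the most reads and was slightly higher in 1CT-A. It had 425, 435 and 428 CPM in 1CT and 482, 529.5 and 498 CPM in 1CT-A, with means of 429 ± 5.20 and 503 ± 24.2 CPM (SD, n = 3 each). The groups did not overlap. The log2 change was 0.19 (SE 0.06, 95% interval 0.06 to 0.33, adjusted p = 0.0212, edgeR), or 1.14-fold. The direction stayed in every setting run, but the call was lost without the first 1CT library (0.18, adjusted p = 0.0650), the second 1CT-A library (0.16, adjusted p = 0.0924) or the third 1CT-A library (0.21, adjusted p = 0.0571), and with upper-quartile scaling (0.13, adjusted p = 0.102, edgeR in each). Adding the replicate number to the fit as a block also ended the call (0.19, adjusted p = 0.0514, edgeR). The last base of CTNNB1 (chromosome 3, 41194741 to 41260096, plus strand) lies inside ULK4 on the opposite strand, which had 26 to 36 counts per library.

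BTRC, the F-box protein that binds phosphorylated β-catenin, was lower in 1CT-A. It had 28.0, 23.1 and 23.8 CPM in 1CT and 17.0, 18.4 and 18.6 CPM in 1CT-A. The groups did not overlap, and the log2 change was -0.51 (SE 0.11, 95% interval -0.75 to -0.26, adjusted p = 0.0022, edgeR), or 0.703 of the 1CT level. Its paralog FBXW11, which binds the same phosphorylated motif, had 27.1, 24.6 and 21.6 CPM in 1CT and 20.4, 24.0 and 21.0 CPM in 1CT-A, overlapping groups, and a log2 change of -0.20 (SE 0.11, 95% interval -0.45 to 0.04) that did not pass (adjusted p = 0.153, edgeR). Neither BTRC (chromosome 10, 101354033 to 101557321, plus strand) nor FBXW11 shared a 50-base word of its transcript ends with another gene.

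**Figure D2:**
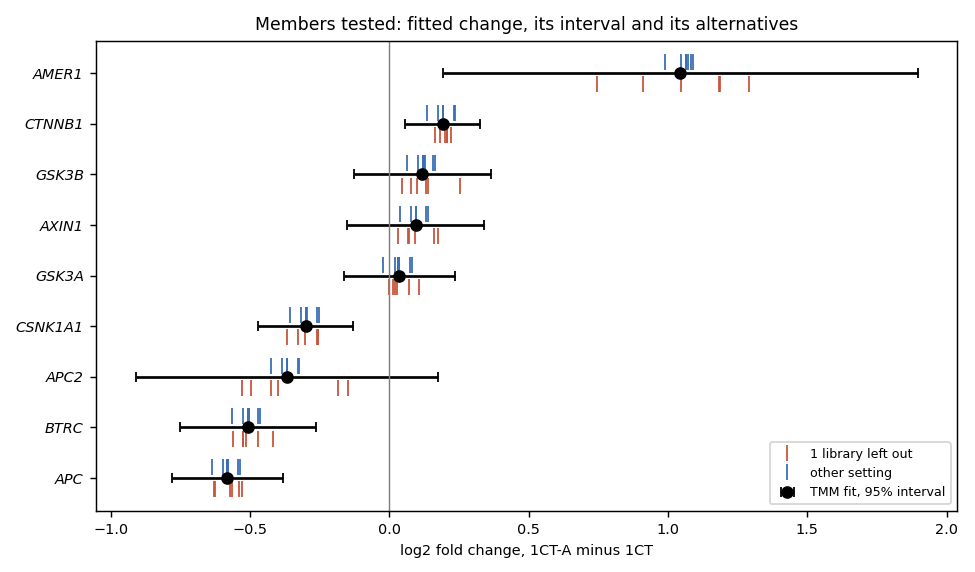
Fitted log2 fold change of 1CT-A minus 1CT (horizontal axis) for the 9 destruction complex genes tested, with 95% intervals as black bars, the value without each library in turn as red ticks and the value under each other setting as blue ticks. APC, BTRC and CSNK1A1 lie below 0 under every tick, CTNNB1 lies above 0, the GSK3A ticks reach 0, and the AMER1 interval is the widest.

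The order of the members by reads was nearly kept between the lines. QuantSeq yields about 1 fragment per transcript, so counts were not divided by length, and the order is one of reads, not of protein. In 1CT it ran CTNNB1, CSNK1A1, APC, GSK3A, GSK3B, BTRC, AXIN1, APC2, AMER1 and AXIN2. GSK3B, BTRC and AXIN1 had overlapping CPM ranges with their neighbours, so their order in 1CT is not settled. In 1CT-A APC stood below GSK3A, and BTRC below AXIN1, and no neighbours overlapped. APC was thus above GSK3A in all 3 1CT libraries and below it in all 3 1CT-A libraries.

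Ratios taken within a library do not depend on its depth or scaling, and 4 pairs of members or paralogs were compared. Per APC read there were 8.60, 9.92 and 9.18 CTNNB1 reads in the 1CT libraries and 15.3, 17.6 and 14.5 in the 1CT-A libraries. The log2 ratio rose from 3.20 ± 0.10 to 3.98 ± 0.15 (SD, n = 3 each), a difference of 0.77 or 1.71-fold with no overlap (exact permutation p = 0.1, adjusted over 4 ratios 0.133). Per APC read there were 0.480, 0.444 and 0.446 AXIN1 reads in 1CT and 0.766, 0.716 and 0.711 in 1CT-A, a difference of 0.68 in log2 and again no overlap. Both ratios were thus higher in each 1CT-A library than in any 1CT library. They share the APC reads, which were lower in 1CT-A (log2 change -0.58), so they are not separate from that fall. AXIN1 itself was not called (log2 change 0.09).

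The 2 paralog pairs moved less. Per GSK3A read there were 0.646, 0.818 and 0.578 GSK3B reads in 1CT and 0.716, 0.785 and 0.668 in 1CT-A, overlapping groups with a log2 difference of 0.10 (exact permutation p = 0.6). Per BTRC read there were 0.966, 1.07 and 0.908 FBXW11 reads in 1CT and 1.20, 1.30 and 1.13 in 1CT-A, a log2 difference of 0.30 with no overlap. FBXW11 thus took a larger share of the reads of this pair in each 1CT-A library. The smallest p that 3 against 3 libraries allow is 0.1, so none of the 4 ratios could pass 0.05.

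**Figure D3:**
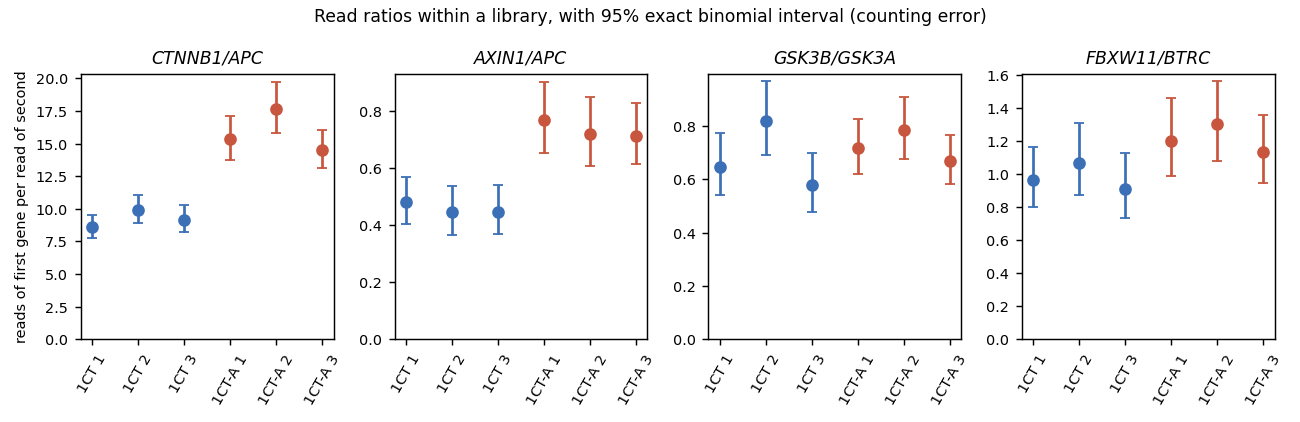
Reads of the first gene per read of the second in each of the 6 libraries (vertical axis, linear from 0) for CTNNB1 to APC, AXIN1 to APC, GSK3B to GSK3A and FBXW11 to BTRC, with 95% exact binomial intervals that cover counting error only. The 1CT-A points (red) lie above all 1CT points (blue) in each ratio except GSK3B to GSK3A.

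The 67 other genes of the pathway, in 9 lists, were counted in the same fit. Of the 56 that could be tested, 17 were higher and 12 lower, or 51.8% called against 51% of all genes, and 14 of the 56 were called with at least a 1.5-fold change, beside 28.3% of all genes. Without single libraries 8 of the 29 lost the call, and among these 8 CSNK1D, PPP2CB, TNKS2, USP34, USP7 and USP9X also lost it under at least 1 other setting. Like the members, these genes were called about as often as any gene. The counts per list that follow stand beside 25% higher and 26% lower over all genes tested.

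**Figure D4:**
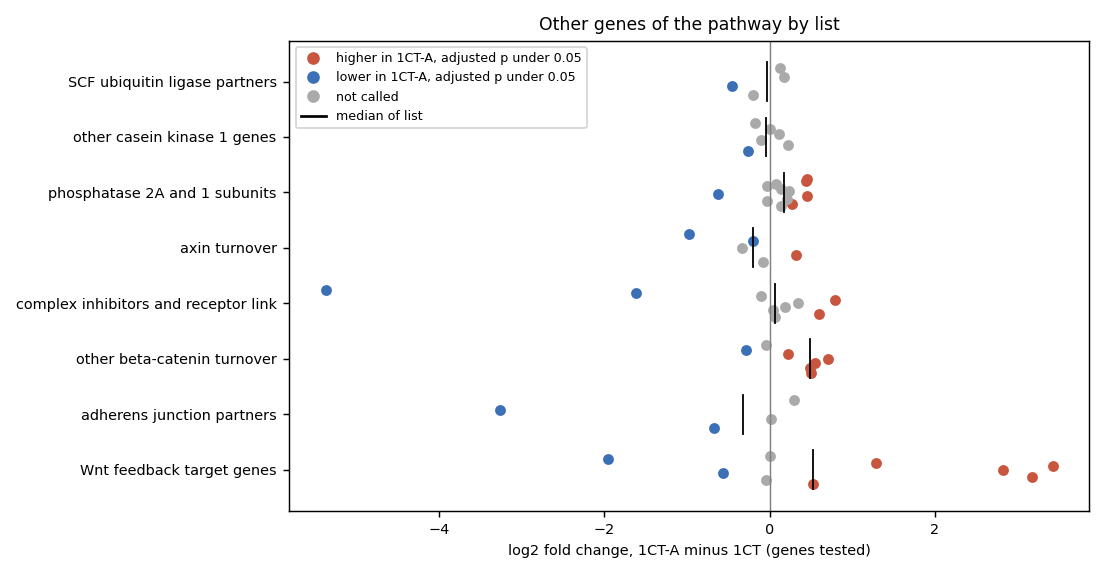
Fitted log2 fold change of 1CT-A minus 1CT (horizontal axis) for the 56 tested pathway genes outside the complex, grouped by list, where red and blue points are genes higher and lower at an adjusted p under 0.05, grey points are not called and black lines are list medians. The 3 points farthest right are LEF1, TNFRSF19 and APCDD1, and the 2 farthest left are CCDC88C and JUP.

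Among the 4 partners that complete or parallel the ubiquitin ligase, 1 was lower and 3 did not pass. SKP1, the adaptor that joins BTRC to the cullin, had 377, 367 and 369.8 CPM in 1CT and 269, 277 and 287 CPM in 1CT-A, with a log2 change of -0.46 (SE 0.06, adjusted p = 5.1e-05, edgeR). The cullin CUL1 (log2 change 0.18, adjusted p = 0.157) and the RING subunit RBX1 (0.13, adjusted p = 0.147) did not pass, nor did FBXW11. BTRC and SKP1 were thus lower, while CUL1, RBX1 and FBXW11 gave no call. Of the 4 partners 25% were called, against 51% of all genes tested.

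Of 6 other casein kinase 1 genes, CSNK1D was lower (log2 change -0.26, adjusted p = 0.0198) and 5 did not pass. The CSNK1D call was lost without the third 1CT library or any 1CT-A library (adjusted p = 0.0533 to 0.0683, edgeR) and with no filter (adjusted p = 0.0507). Of 12 subunits of phosphatases 2A and 1, which can remove phosphates from β-catenin and axin, 4 were higher, 1 was lower and 7 did not pass. The catalytic subunits PPP1CC (log2 change 0.45, adjusted p = 0.00035) and PPP1CB (0.44, adjusted p = 0.00158) were higher with every library left out. PPP2R5A was higher (0.45, adjusted p = 0.0119), a call lost without the third 1CT-A library (adjusted p = 0.0575), and PPP2CB was higher (0.27, adjusted p = 0.0217), a call lost without the second 1CT, the first 1CT-A or the third 1CT-A library (adjusted p = 0.0601 to 0.0693) and with upper-quartile scaling (adjusted p = 0.0579). The regulatory subunit PPP2R5B was lower (-0.62, adjusted p = 0.0115), a call lost without the second or the third 1CT-A library (adjusted p = 0.0523 and 0.0552).

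Of 5 genes of axin turnover, 1 was higher and 2 lower. SMURF2, a ubiquitin ligase known to act on axin, had 52.3, 50.3 and 41.3 CPM in 1CT and 21.1, 28.8 and 25.3 CPM in 1CT-A, a log2 change of -0.98 (SE 0.12, adjusted p = 2.1e-05, edgeR) with no overlap. The tankyrase TNKS2 was higher (0.32, adjusted p = 0.0416) and the deubiquitinase USP34 lower (-0.20, adjusted p = 0.0491), but the TNKS2 call was lost without any library other than the second of 1CT (adjusted p = 0.0524 to 0.118) and the USP34 call without any library (adjusted p = 0.0554 to 0.157). With DESeq2 the adjusted p was 0.106 for TNKS2 and 0.114 for USP34. TNKS and RNF146 did not pass.

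Of 9 genes that inhibit the complex or link it to the receptor, 2 were higher, 2 lower and 5 did not pass. DVL2, a dishevelled protein that recruits axin to the receptor, had 29.8, 33.1 and 32.9 CPM in 1CT and 50.9, 51.3 and 46.0 CPM in 1CT-A (log2 change 0.59, SE 0.09, adjusted p = 0.00014, edgeR). LRP5, a Wnt co-receptor, rose from 6.63, 5.80 and 5.65 CPM to 10.6, 10.4 and 11.0 CPM (0.79, SE 0.15, adjusted p = 0.0008). DVL1, DVL3, LRP6, FRAT1 and FRAT2 gave no call, so among the dishevelled genes DVL2 was the one called.

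The 2 genes of this list that were lower were DIXDC1, which carries a DIX domain as the dishevelled proteins do, and CCDC88C, also called DAPLE, which binds dishevelled. DIXDC1 had 17.9, 17.7 and 18.6 CPM in 1CT and 5.83, 6.41 and 5.87 CPM in 1CT-A (log2 change -1.62, SE 0.13, adjusted p = 6.0e-07, edgeR). CCDC88C had 113, 94 and 88 counts in 1CT and 7, 2 and 1 counts in 1CT-A (log2 change -5.37, SE 0.35, adjusted p = 8.8e-08), and it entered the test through the 1CT libraries.

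Of 7 genes of β-catenin turnover outside the complex, 5 were higher, 1 was lower and 1 did not pass. Over all genes tested 25% were higher and 26% lower. The median log2 change of the 7 was 0.48 against -0.01 over all genes tested, and the list holds both ligases and deubiquitinases. JADE1, a ubiquitin ligase for β-catenin, had 35.8, 41.4 and 32.4 CPM in 1CT and 62.2, 61.1 and 59.9 CPM in 1CT-A (log2 change 0.70, SE 0.09, adjusted p = 4.6e-05, edgeR). Of the SIAH route, which degrades β-catenin without phosphorylation, SIAH1 (0.50, adjusted p = 0.00174), SIAH2 (0.48, adjusted p = 0.0066) and their binding partner CACYBP (0.55, adjusted p = 1.7e-05) were higher. SKP1 and APC were lower, as given above, and the route as a whole was not tested. The deubiquitinase USP7 was higher (0.22, adjusted p = 0.0161), a call lost without the first 1CT-A library (adjusted p = 0.0736) and with upper-quartile scaling (adjusted p = 0.0669, edgeR). USP9X was lower (-0.28, adjusted p = 0.0304), a call lost without any library except the first 1CT library (adjusted p = 0.0554 to 0.136) and with scaling to library size alone (adjusted p = 0.0557), and USP47 did not pass.

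Of 6 genes of the adherens junction, where β-catenin binds cadherins, 4 were tested and 2 were lower. CTNNA1, α-catenin, had 178, 177 and 171 CPM in 1CT and 111, 116 and 112 CPM in 1CT-A (log2 change -0.67, SE 0.07, adjusted p = 3.4e-06, edgeR). JUP, plakoglobin, the closest relative of β-catenin, had 94, 170 and 92 counts in 1CT and 9, 34 and 11 in 1CT-A (-3.26, SE 0.38, adjusted p = 1.2e-05), with the second library high in both lines, and it entered the test through the 1CT libraries. CTNND1 and CDH2, the neural cadherin, did not pass, and CDH1, the epithelial cadherin, had at most 4 counts and was not tested. Of the epithelial markers, KRT18 had 9.94 to 13.2 CPM in 1CT against 3.23 to 7.02 CPM in 1CT-A, and KRT19 had 20, 27 and 34 counts in 1CT and 0 in each 1CT-A library. The part of these differences in the JUP and CTNNA1 values was not tested.

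Of 16 feedback and target genes of β-catenin besides AXIN2, 9 were tested, 5 were higher and 2 lower. LEF1, a partner of β-catenin in the nucleus, had 1.06, 1.69 and 1.16 CPM in 1CT and 12.8, 14.8 and 9.20 CPM in 1CT-A (log2 change 3.18, SE 0.27, adjusted p = 7.7e-07, edgeR). TNFRSF19 had 4, 3 and 2 counts in 1CT and 33, 50 and 65 in 1CT-A (3.43, SE 0.40, adjusted p = 1.3e-05). APCDD1, an inhibitor of Wnt receptors, had 0, 4 and 3 counts in 1CT and 25, 25 and 26 in 1CT-A (2.83, SE 0.52, adjusted p = 0.00056). TNFRSF19 and APCDD1 entered the test through the 1CT-A libraries.

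The ubiquitin ligase ZNRF3, which removes Wnt receptors, was higher (log2 change 0.52, adjusted p = 0.011), and so was MYC (1.29, adjusted p = 0.00012). CCND1 (-1.96, adjusted p = 2.6e-09) and the secreted inhibitor DKK1 (-0.56, adjusted p = 0.00188, edgeR) were lower. TCF7 and CD44 did not pass, and the 7 genes NKD1, NKD2, RNF43, LGR5, NOTUM, SP5 and ASCL2 had at most 4 counts in any library. The targets thus went in both directions, and several of those used as readouts in colon, AXIN2 and LGR5 among them, were too low to be read.

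The genes whose level across the 6 libraries was most like that of APC were SLC25A20, a carnitine carrier (Pearson r = 0.997 on log2 CPM), S100A16 (0.996), EPN2 (0.992), AK1 (0.991) and FADS3 (0.989), out of 8223 genes with at least 10 CPM. These values are a description over 6 libraries in 2 separate groups. In such data a gene lower in 1CT-A with little spread within each line tends to score high, and 971 genes had r above 0.9. S100A16 had 183 CPM in 1CT and 132 CPM in 1CT-A on average, and FADS3 149 and 82.9 CPM.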

How the data were processed

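The authors deposited 1 file of raw read counts per gene symbol and library, without normalization or pooling. The submitters' processing notes name Bowtie2, edgeR and hg19 without versions; the annotation, counter and strand setting are not given in the sources used here. Repeated symbols were summed. 1CT-A was tested against 1CT with edgeR 4.0.16 (R 4.3.3): TMM scaling, filterByExpr with a minimum count of 10, the two-sided quasi-likelihood test and Benjamini-Hochberg adjustment. The members and lists were chosen with earlier results of these data known. All members were named, and per pathway list up to 3 genes per direction with an adjusted p under 0.05 and at least 1.5-fold, the paralogs FBXW11, AMER2, AMER3 and CSNK1A1L, and the 5 genes most correlated with APC. Other pathway and marker genes were named after their values were seen. Within-library ratios used a pseudocount of 0.5, and correlations log2(CPM + 1). The fit was also run on simulated data with far fewer changed genes than were called here, so that run does not bear on the results. Positions come from GENCODE release 44 on GRCh38, not the build of the counts, and 50-base words from the last 500 bases of its coding transcripts. Alternatives were other scalings and filters, DESeq2 1.42.0, limma 3.58.1 (voom), a replicate block and leaving out each library.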

Additional observations from a re-analysis of the deposited data

How the results depend on the processing

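The 3 members called lower (APC, CSNK1A1 and BTRC) were 3 in every setting run. The number called higher was 2, and became 1 with at least 10 counts in every library, which removed AMER1 from the test, and 1 with DESeq2. It was 0 with upper-quartile scaling (an alternative chosen after seeing the data) and 0 at an adjusted p under 0.01, and 0 to 1 when single libraries were left out. AMER1 kept its direction at 1.06 (DESeq2) and 0.99 (upper quartile) in log2 but lost the call, with a range of 0.74 to 1.29 without single libraries. CTNNB1 lost the call at 0.13 with upper-quartile scaling and ranged from 0.16 to 0.22 without single libraries. GSK3A, never called, reversed to -0.022 with upper-quartile scaling and ranged from -0.0029 to 0.11 without single libraries. The log2 ratio of GSK3B to GSK3A, 0.10, ranged from -0.011 to 0.24. The cause of these moves was not tested. Over all genes, upper-quartile scaling gave 2681 higher and 3661 lower calls against 3131 and 3257.

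Deviations of same-numbered libraries correlated at -0.16, 0.22 and -0.14 over 8224 genes, and those of differently numbered libraries at -0.29 to 0.34. These values gave no sign that the replicate numbers pair the samples, but they cannot exclude a pairing. With a replicate block, 6091 genes were called against 6388, and 0 members were called higher, with AMER1 at 1.06 (adjusted p = 0.0541) and CTNNB1 at 0.19 (adjusted p = 0.0514, edgeR). Low counts limit AXIN2, AMER1 and APC2, and 3 libraries per line limit every exact test to p = 0.1.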
